A study of Mus musculus with 8 samples.

Results

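Secreted factors and surface proteins that PERK or ATF4 signalling is known to induce were followed in melanomas grown from PERK-deficient or control cells. The 8 genes were chosen by name and by that known role: Stc2, Stc1, Vegfa, Gdf15 and Fgf21 for secreted products, and Vldlr, Tnfrsf10b and Lamp3 for membrane proteins. They were selected with results of this same comparison already known, so the values below describe them and support no wider statement. All 8 were among the 55450 genes of the count table, and 6 were among the 16662 genes that passed a filter on low counts. Fgf21 and Lamp3 did not pass it.

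The libraries came from cells enriched for c-Kit, a growth factor receptor of melanocytes, mast cells and blood progenitors, out of tumours of the mouse melanoma line B16F10. Wild-type C57BL6 mice, 6 weeks old, were injected subcutaneously with 150000 tumour cells, and the tumours were taken on day 17. The injected cells were either Scramble B16F10, the control line (4 libraries, numbered 2 to 5), or PERK KO B16F10, a line with the kinase PERK knocked out (4 libraries, numbered 1 to 4). The hosts were wild-type in both groups, and no other treatment is named. Cells were enriched with magnetic beads, without a flow sort, so each library could hold injected cells and host cells, and whether the knockout line was 1 clone or a pool is not given in the sources used here.

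PERK sits in the membrane of the endoplasmic reticulum and phosphorylates the translation factor eIF2 when unfolded proteins accumulate. This slows most protein synthesis but favours translation of ATF4, a transcription factor that binds, with C/EBP family partners, a composite DNA element in many stress genes. Some of its products leave the cell as hormones or growth factors, and others sit on the cell surface, so they carry the stress response to neighbouring cells and distant tissues. Other kinases that phosphorylate eIF2, low oxygen and the p53 pathway are also known to induce several of these genes.

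Library totals ran from 44950033 to 56697163 counts in the scramble group and from 29006949 to 47530393 counts in the PERK-deficient group. Levels are in CPM, the count of a gene relative to the total of its library, corrected by a TMM factor for each library so that totals are comparable. A floor of 3 counts corresponded to 0.0515 to 0.0650 CPM in scramble and to 0.0697 to 0.100 CPM in PERK-deficient libraries, and floors cover counting error only. Eif2ak3, which encodes PERK, fell from 54.3 ± 4.67 CPM in scramble to 13.8 ± 7.07 CPM in PERK-deficient libraries (SD, n = 4 each, log2 difference -1.97, SE 0.31, edgeR adjusted p = 0.00371). Over all tested genes, edgeR called 1277 higher (7.66%) and 1022 lower (6.13%) with PERK deficiency, using an adjusted p under 0.05. With upper-quartile scaling these counts were 1430 and 653, with median-ratio scaling 1364 and 767, and with library totals alone 1065 and 1169, so the direction of the balance depends on the scaling. The total of 2299 calls fell to 1283, 1078, 1428 and 1361 when scramble library 2, 3, 4 or 5 was left out. The mitochondrial share of counts was 3.71 to 4.50% in scramble libraries and 5.22, 19.2, 13.9 and 6.89% in PERK-deficient libraries 1 to 4.

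Of the 6 tested members, 1 was called higher (Stc2), against 7.66% of all genes tested, and 1 was called lower (Vldlr), against 6.13%. Libraries of the 2 groups did not overlap for these same 2 members, against 21.3% of all genes tested. Since the members were picked with this contrast known, nothing is read from these counts. The median log2 difference of the 6 tested members was 0.08, and that of all tested genes was -0.02.

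Short stretches of DNA upstream of 3 members are shown because the composite element bound by ATF4 and C/EBP partners can be searched in them. Promoter windows of 300 bases, 250 before and 50 after each annotated start, came from the RefSeq table for GRCm38.p6, and 6 of the 8 members had 9 windows among them. The element was searched as TGATGNAA on both strands and was in 3.97% of all 32851 windows and in 2 of the 9 member windows, 1 of Fgf21 and 1 of Vldlr. Both matches read TTGCATCA along the gene's strand, the reverse complement of the searched letters, and stand in capitals below. The Fgf21 run ends at the base before the start, on the minus strand at chr7:45615491-45615740, and its match begins 139 bases upstream. The Stc2 run, on the minus strand at chr11:31370075-31370311, covers the bases from 250 to 14 upstream and held no match, so nothing in it is capitalised. The Vldlr stretch, on the plus strand at chr19:27216809-27216838, lies around a match that begins 200 bases upstream of an internal start of the gene, inside an exon of a longer gene model.
Fgf21: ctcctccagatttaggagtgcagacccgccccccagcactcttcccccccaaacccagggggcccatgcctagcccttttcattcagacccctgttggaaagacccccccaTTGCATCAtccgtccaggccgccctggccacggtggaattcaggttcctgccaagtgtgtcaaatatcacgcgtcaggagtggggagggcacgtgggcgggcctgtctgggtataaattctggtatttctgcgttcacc
Stc2: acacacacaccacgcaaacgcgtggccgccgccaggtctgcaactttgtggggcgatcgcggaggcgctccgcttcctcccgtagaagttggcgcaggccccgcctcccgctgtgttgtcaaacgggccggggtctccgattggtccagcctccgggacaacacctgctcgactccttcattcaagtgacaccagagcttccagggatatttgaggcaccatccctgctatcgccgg
Vldlr: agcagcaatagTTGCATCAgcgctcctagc
The cAMP response element TGACGTCA was in 1.79% of all windows and in 0 of the 9 member windows. The core letters of the hypoxia response element, ACGTG or GCGTG on either strand, were in 43.8% of all windows and in 4 of the 9, those of Fgf21, Gdf15, Stc2 and 1 of Vegfa. Both orders of these cores overlap in a palindrome such as CACGTG, which then matches on each strand. A match describes letters in a window and shows no binding.

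Stc2 encodes stanniocalcin 2, a secreted glycoprotein that blocks the proteases PAPP-A and PAPP-A2 and so limits release of insulin-like growth factors. The gene (ENSMUSG00000020303.2, mm10 chr11:31357307-31370074, minus strand) had 0.543, 0.532, 0.368 and 0.755 CPM in scramble libraries 2 to 5 and 10.9, 6.46, 9.89 and 5.64 CPM in PERK-deficient libraries 1 to 4. Every PERK-deficient library was above every scramble library, with libraries 1 and 3 the highest. Means were 0.550 ± 0.158 and 8.23 ± 2.57 CPM (SD, n = 4 each), a ratio of 15.0, on 117 counts in all scramble libraries and 1234 in all PERK-deficient libraries. Stc2 rose, with a log2 difference of 3.90 (SE 0.38, edgeR adjusted p = 0.000227). Its upstream stretch printed above held no composite element, and the part of such elements in the Stc2 values was not tested.

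Stc1, the other stanniocalcin, is a secreted relative with reported roles in calcium handling and low oxygen. It (ENSMUSG00000014813.9, chr14:69029238-69041804, plus strand) had 49.5, 53.6, 42.1 and 53.6 CPM in scramble and 43.8, 61.7, 41.6 and 40.5 CPM in PERK-deficient libraries. At these TMM-scaled levels PERK-deficient library 2, which had the lowest TMM factor, 0.863, stood above all others. The remaining 3 lay within or just under the scramble range. Means were 49.7 ± 5.42 and 46.9 ± 9.98 CPM (n = 4 each), with a log2 difference of -0.08 (SE 0.14, edgeR adjusted p = 0.798). Without PERK-deficient library 2 the Stc1 difference was -0.24 (edgeR adjusted p = 0.191). An antisense gene, Gm41192, overlaps the start of Stc1 and had 4 counts in all, in 1 library. The ratio of the 2 stanniocalcins did not overlap between the groups. Per kilobase of exon, the Stc1 level was 112, 124, 141 and 87.6 times the Stc2 level in scramble libraries 2 to 5. In PERK-deficient libraries 1 to 4 it was 4.94, 11.8, 5.19 and 8.85 times the Stc2 level.

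Vegfa encodes the growth factor that drives sprouting of blood vessels through the receptors Flt1 and Kdr. It (ENSMUSG00000023951.17, chr17:46016993-46032369, minus strand) had 183, 171, 191 and 194 CPM in scramble and 184, 277, 231 and 185 CPM in PERK-deficient libraries. Libraries 2 and 3 of the PERK-deficient group were the highest of all 8, and libraries 1 and 4 lay among the scramble values. Means were 185 ± 10.4 and 219 ± 44.4 CPM (n = 4 each), with a log2 difference of 0.25 (SE 0.13, edgeR adjusted p = 0.248). Without PERK-deficient library 2 the log2 difference was 0.12 (edgeR adjusted p = 0.520). Libraries 2 and 3 also had the highest mitochondrial shares, 19.2 and 13.9%. With mitochondrial genes left out before scaling the Vegfa difference was 0.25. TMM scaling already trims genes with extreme ratios, so this setting could move the value little. With library totals alone the Vegfa difference was 0.16, and with upper-quartile scaling it was 0.31. The part of the mitochondrial shares in the Vegfa values was not tested.

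Gdf15 encodes a stress hormone of the transforming growth factor family that acts on appetite through the hindbrain receptor Gfral. It (ENSMUSG00000038508.7, chr8:70629393-70632456, minus strand) had 0.724, 0.704, 1.04 and 0.271 CPM in scramble and 1.74, 1.07, 1.02 and 4.97 CPM in PERK-deficient libraries. Only PERK-deficient library 4, with 191 counts, was far from the rest, and the groups overlapped narrowly at 1.02 against 1.04 CPM. Means were 0.685 ± 0.316 and 2.20 ± 1.87 CPM (n = 4 each), with a log2 difference of 1.68 (SE 0.72, edgeR adjusted p = 0.160). Without library 4 the difference was 0.89 (edgeR adjusted p = 0.532), so 1 library set much of its size. Library 4 also had the highest summed level of pan-leukocyte markers, 1057 CPM against 259 to 482 CPM in the other PERK-deficient libraries. It was also highest for epithelial markers, 243 CPM against 92.9 to 131 CPM, and for mast cell and dendritic cell markers. For melanocyte lineage markers library 4 was lowest, 16355 CPM against 18966 to 19959 CPM. The part of any of these cells in the Gdf15 value was not tested.

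Fgf21 encodes a hormone made mainly by liver that signals through fibroblast growth factor receptors with the co-receptor Klb. It (ENSMUSG00000030827.5, chr7:45613886-45615490, minus strand) had 0 counts in all 8 libraries. A count of 0 allows up to 3 counts in a group, 0.0142 CPM over the scramble libraries and 0.0197 CPM over the PERK-deficient libraries. Its window, printed above, is 1 of the 2 with a composite element, and no transcript was detected at this depth in either group.

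Among the membrane proteins, Vldlr encodes the very low density lipoprotein receptor, which takes up lipoproteins carrying apolipoprotein E and transmits signals from reelin. It (ENSMUSG00000024924.14, chr19:27216484-27254231, plus strand) had 9.88, 8.98, 12.0 and 13.3 CPM in scramble and 4.12, 4.00, 3.13 and 4.32 CPM in PERK-deficient libraries. Every PERK-deficient library was below every scramble library, with a narrow spread inside the PERK-deficient group. Means were 11.1 ± 1.98 and 3.89 ± 0.522 CPM (n = 4 each), so the scramble level was 2.84 times the PERK-deficient level. Vldlr fell, with a log2 difference of -1.51 (SE 0.23, edgeR adjusted p = 0.00246). It was the only tested member called lower. Its internal window carries the composite element shown above, while the 250 bases before its first annotated start held none. The part of this element in the Vldlr values was not tested.

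Tnfrsf10b encodes the mouse receptor for the death ligand TRAIL, a target of the stress factor CHOP and of p53. It (ENSMUSG00000022074.6, chr14:69767472-69784411, plus strand) had 28.8, 27.6, 32.8 and 35.9 CPM in scramble and 22.0, 33.5, 23.8 and 23.9 CPM in PERK-deficient libraries. PERK-deficient libraries 1, 3 and 4 were below every scramble library, and library 2 was within the scramble range. Means were 31.3 ± 3.80 and 25.8 ± 5.21 CPM (n = 4 each), with a log2 difference of -0.28 (SE 0.15, edgeR adjusted p = 0.284). Without library 2 the log2 difference was -0.42 (edgeR adjusted p = 0.0592). Library 2 was thus the highest of its group for Stc1, Vegfa and Tnfrsf10b. It also had the highest mitochondrial share and the lowest TMM factor, 0.863. The part of either in these values was not tested.

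Lamp3 encodes a lysosomal and surface glycoprotein, known as DC-LAMP, that marks human mature dendritic cells and is induced by PERK signalling in tumour lines. Whether it marks these cells in mouse tumours was not tested here. It (ENSMUSG00000041247.8, chr16:19653378-19706375, minus strand) had 1, 1, 0 and 1 counts in scramble and 1, 0, 0 and 2 counts in PERK-deficient libraries. Both groups thus held 3 counts in all, at the floor, and no fold can be given. Genes listed as markers of mature dendritic cells were counted in the same libraries. Ccr7, the homing receptor of these cells, rose from 2.04 ± 1.22 CPM in scramble to 33.4 ± 31.3 CPM in PERK-deficient libraries (n = 4 each, edgeR adjusted p = 0.0223). Of 13 tested markers of mature dendritic cells, 9 were called higher and 0 lower, against 7.66% and 6.13% of all genes tested. The summed level of the 14 listed was 153 to 200 CPM in scramble and 394 to 692 CPM in PERK-deficient libraries. Fscn1 alone averaged 149 and 343 CPM, against mean sums of 186 and 516 CPM, so the sum mostly followed this gene. Which cells its RNA came from was not tested. Lamp3 stayed at 3 counts in each group beside these markers.

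**Figure D1:**
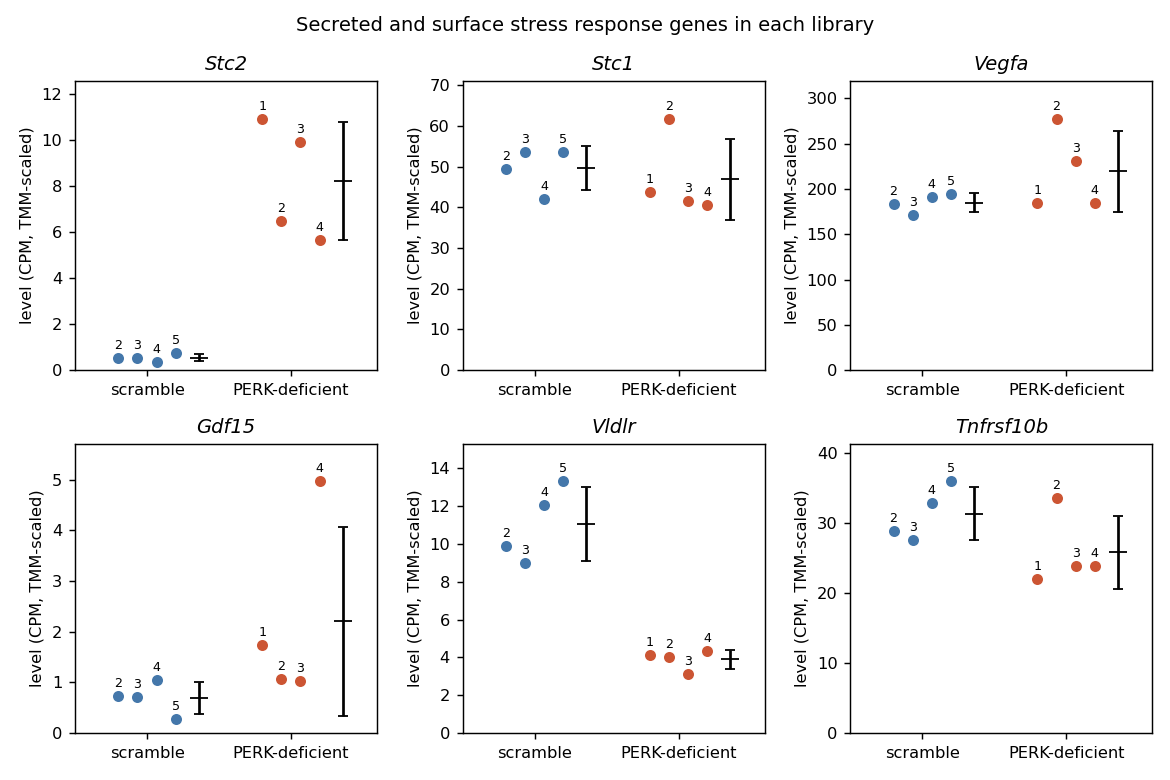
Each panel plots 1 tested member, with the level in CPM from 0 on the vertical axis, 1 numbered point per library, and the mean with SD (n = 4) beside each group. The groups are apart for Stc2, 0.368 to 0.755 against 5.64 to 10.9 CPM, and for Vldlr, 8.98 to 13.3 against 3.13 to 4.32 CPM, and overlap for the other 4.

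Levels of different genes were set side by side per kilobase of exon. In scramble tumours Vegfa led with 43.2 CPM per kilobase, then Stc1 with 11.8, Tnfrsf10b with 5.74, Vldlr with 1.10, Gdf15 with 0.370 and Stc2 with 0.106 CPM per kilobase. Library ranges of neighbours in that order did not overlap down to Lamp3, and those of Lamp3 and Fgf21 did. Gdf15 and Stc2 were barely apart in library 5, at 0.1463 against 0.1458 CPM per kilobase on 14 and 39 counts. Counting error covers that gap, so their order in that library was not settled. In PERK-deficient tumours the first 3 kept their places, with 51.2, 11.2 and 4.73 CPM per kilobase. Stc2, at 1.59 CPM per kilobase, came next and could not be ordered against Gdf15, at 1.19, because their libraries overlapped. Vldlr followed at 0.387 CPM per kilobase, below both. The 2 called members thus changed places between the groups: Vldlr was above Stc2 in scramble and below it in PERK-deficient tumours.

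Within a group, the members were not all highest in the same library. In the PERK-deficient group, library 1 was highest for Stc2, library 2 for Stc1, Vegfa and Tnfrsf10b, and library 4 for Gdf15 and Vldlr. Library 4 was also lowest for Stc2 and Stc1. In the scramble group, library 5 had the highest levels of Stc2, Stc1, Vldlr, Vegfa and Tnfrsf10b and the lowest of Gdf15.

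Genes with the most similar pattern were sought by the Pearson correlation of log2 CPM over the 8 libraries after each group's mean was removed, a description in which all points share library and depth. The highest values were picked from 10957 genes per member (10958 for Gdf15) over only 8 libraries. Values this high can therefore arise by chance, and no shared function is read from them. Vegfa lay closest to 3 mitochondrial genes, mt-Cytb, mt-Atp6 and mt-Co2, each at r = 0.983. Stc2 lay closest to Psph, an enzyme of serine synthesis, at 0.969, then Foxa1, a transcription factor of epithelia, at 0.949 and Gpam at 0.941. Between the groups Psph was not called (log2 difference -0.28, edgeR adjusted p = 0.355), unlike Stc2. Genes near Vldlr included Gng5 at 0.969 and Igbp1 at 0.968. Stc1 had Tet1 at 0.967, Bcap29 at 0.965 and Gpnmb at 0.958. For Gdf15 they were Car2 at 0.979, Polr1b at 0.976 and Slc35a4 at 0.970, and for Tnfrsf10b Eif1b at 0.996, Aste1 at 0.990 and Tubg2 at 0.990.

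Receptors, ligands and other partners of the members were read from a list of 26 genes, of which 19 were tested, 4 were called higher and 1 lower, with a median log2 difference of 0.02. The share called was 26.3%, against 13.8% of all genes tested. Among partners of stanniocalcin 2, the proteases Pappa and Pappa2 had too few counts to test, 1 and 0 in scramble and 17 and 10 in PERK-deficient libraries. The binding proteins those proteases cut went different ways: Igfbp5 rose from 4.71 ± 2.47 to 205 ± 95.6 CPM (n = 4 each, log2 difference 5.43, SE 0.57, edgeR adjusted p = 0.00174). Igfbp4 fell from 160 ± 9.18 to 113 ± 13.0 CPM (n = 4 each, log2 difference -0.51, SE 0.10, edgeR adjusted p = 0.00612). For Fgf21, Klb had 0 counts, while the receptor genes Fgfr2 (0.238 to 4.64 CPM, edgeR adjusted p = 0.00113) and Fgfr1 (13.9 to 22.2 CPM, edgeR adjusted p = 0.0423) were called higher. The Gdf15 receptor Gfral had 0 counts. Vegfa receptors were not called, with means in scramble and PERK-deficient tumours of 34.2 and 30.1 CPM for Flt1 and 21.8 and 19.8 CPM for Kdr. Dab2, an endocytic adaptor that binds receptors of the Vldlr family, rose from 39.4 to 164 CPM (edgeR adjusted p = 0.0125), and Apoe was not called at 950 and 964 CPM. The TRAIL gene Tnfsf10 had 0.307 and 1.72 CPM (edgeR adjusted p = 0.0712), and Fadd, Casp8 and Cflar, which act below its receptor, were not called.

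Relatives of the members were read from a list of 19 genes, of which 16 were tested, 2 were called higher and 2 lower, with a median log2 difference of 0.15. The share called was 25%, against 13.8% of all genes tested. These 4 calls became 2 without scramble library 3 and 2 without scramble library 4. In the receptor family of Vldlr, Lrp8, the other reelin receptor, fell from 42.2 ± 3.48 to 29.8 ± 3.08 CPM (n = 4 each, edgeR adjusted p = 0.0140). The larger Lrp1 rose from 46.1 ± 11.0 to 81.2 ± 18.2 CPM (n = 4 each, edgeR adjusted p = 0.0190). The log2 difference of Lrp8 was -0.50 beside -1.51 for Vldlr. Cd68, a relative of Lamp3 found in macrophages, rose from 19.9 ± 3.59 to 88.7 ± 48.7 CPM (n = 4 each, edgeR adjusted p = 0.00952). Lamp1 and Lamp2 were not called, at 373 and 406 CPM and at 380 and 386 CPM. Of the Vegfa relatives Vegfb, Vegfc, Vegfd and Pgf, none passed the edgeR test, and Vegfc came closest with 11.9 and 6.76 CPM (adjusted p = 0.0620).

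**Figure D2:**
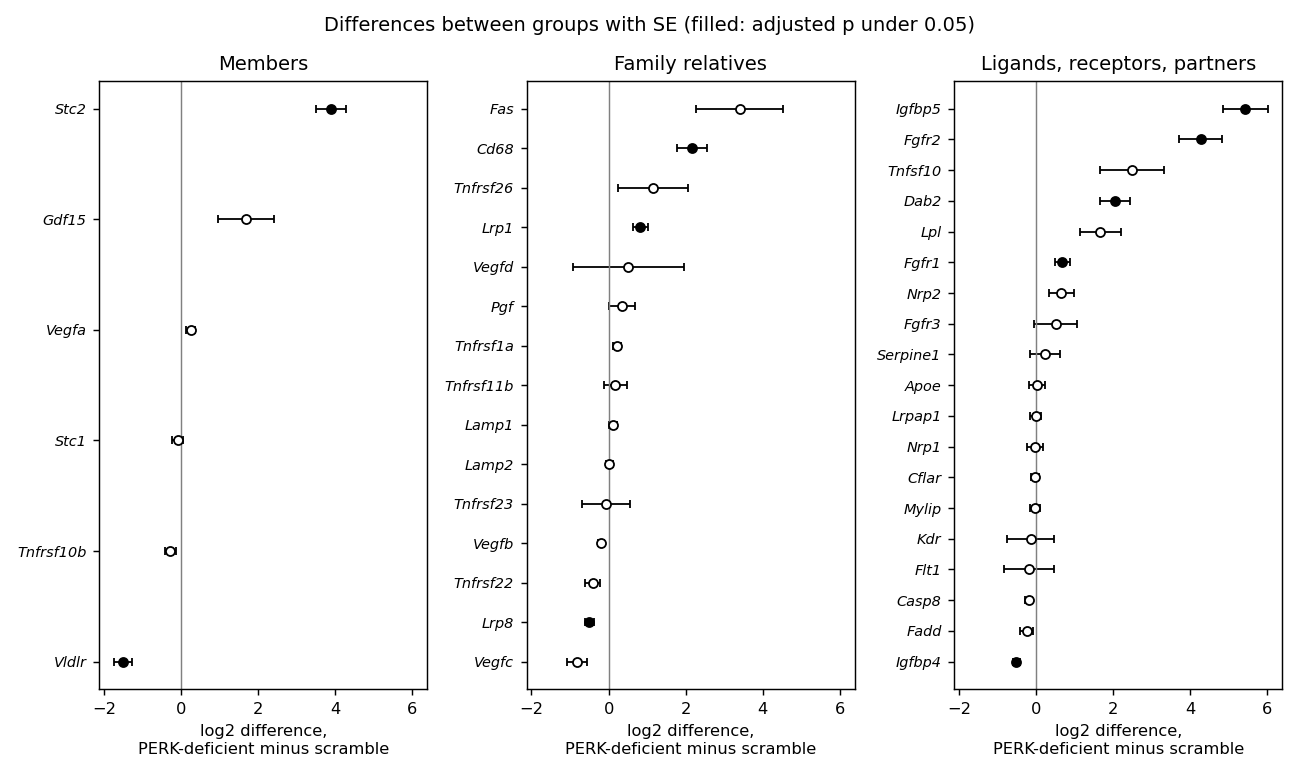
Log2 differences, PERK-deficient minus scramble, are plotted with their SE for the 6 tested members and for tested relatives and partners, with filled points for an edgeR adjusted p under 0.05. Stc2 lies at 3.90 and Vldlr at -1.51, and the other 4 members are open points.

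The wider PERK and ATF4 pathway was read from 46 genes, of which 45 were tested, 5 were called higher and 2 lower, with a median log2 difference of -0.01. That is 15.6% called, against 13.8% of all genes tested. Without scramble library 2 the 7 calls were 3, and without scramble library 3 they were 3. Eif2ak4, another kinase that phosphorylates eIF2, rose from 49.0 to 107 CPM (log2 difference 1.13, SE 0.11, edgeR adjusted p = 0.000147). Atf3 rose from 31.7 to 72.0 CPM (edgeR adjusted p = 0.00250) and Cebpb from 4.60 to 15.5 CPM (edgeR adjusted p = 0.00897), and both encode transcription factors of the stress response. Slc6a9 and Nupr1 were the other 2 called higher, and Phgdh and Atf6 the 2 called lower. Atf4 itself had 233 ± 2.07 and 259 ± 43.4 CPM (n = 4 each, edgeR adjusted p = 0.443), and the chaperone gene Hspa5 had 890 and 887 CPM.

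Hypoxia and p53 also act on several members, so their targets were listed. Of 20 tested hypoxia targets 2 were called higher (Egln3 and Pfkfb3) and 2 lower (Ldha and Adm), with a median log2 difference of 0.06. The share called was 20%, against 13.8% of all genes tested. Without scramble library 2, 3, 4 or 5 these 4 calls were 2 each time. Of 17 tested p53 targets among 18 listed, 7 were called higher and 0 lower, with a median of 0.32. Here 41.2% were called, against the same 13.8%. The other 10 tested were not called, among them Mdm2 at 0.20 and Bax at -0.26. Of the 17 log2 differences, 14 were positive. Cdkn1a, which encodes the cell cycle inhibitor p21, rose from 67.8 ± 4.51 to 228 ± 37.4 CPM (n = 4 each, log2 difference 1.75, SE 0.12, edgeR adjusted p = 2.4e-05). The part of either pathway in the values of any member, called or not, was not tested.

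The make-up of the libraries differed between the groups, and in bulk RNA fewer cells of a type and less RNA per cell cannot be told apart. Counts of called markers below stand beside 7.66% called higher and 6.13% called lower among all genes tested. Melanocyte lineage markers were abundant in all libraries, with a summed level of 24649 to 25210 CPM in scramble and 16355 to 19959 CPM in PERK-deficient libraries, and 6 of 10 were called lower with a median log2 difference of -0.44. Epithelial markers summed to 3.31 to 5.98 CPM in scramble libraries, where 2 to 7 of the 10 markers had 0 counts, and to 131, 92.9, 128 and 243 CPM in PERK-deficient libraries 1 to 4, with 9 of 10 called higher. Stc2 followed the order of these sums in PERK-deficient libraries 1 to 3, but library 4 had the highest epithelial sum and the lowest Stc2 level, 5.64 CPM. Pan-leukocyte markers summed to 51.4 to 110 CPM and to 259 to 1057 CPM, with 10 of 10 called higher. Mast cell markers summed to 18.6 to 159 CPM and to 689 to 3066 CPM, with 8 of 8 called higher. Macrophage markers summed to 27.9 to 81.2 CPM and to 174 to 561 CPM, with 10 of 10 called higher. Dendritic cell markers summed to 51.4 to 151 CPM and to 760 to 4062 CPM, with 7 of 9 tested called higher. Blood progenitor markers summed to 179 to 248 CPM and to 211 to 421 CPM, with 4 of 7 tested called higher. Kit made up most of their mean sums of 218 and 294 CPM, with means of 196 CPM in scramble and 175 CPM in PERK-deficient libraries. Kit was not called (log2 difference -0.16, edgeR adjusted p = 0.559). Of the untested progenitor markers, Mpo and Prtn3 had 0 counts, and Elane, Ctsg and Cebpe had 0 to 31 counts per group. Fibroblast and mural markers, with 1 of 10 called, and endothelial markers, with 0 of 10, overlapped between groups. T and NK cell markers summed to 0.347 to 2.19 CPM and to 2.45 to 41.1 CPM, without overlap, and 0 of 5 tested were called, with a median log2 difference of 3.67. Single melanocyte markers differed by -0.15 (Mlana) to -1.18 (Trpm1) on the log2 scale, beside -1.51 for Vldlr. The part of any of these cells in the Stc2 or Vldlr values was not tested.

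**Figure D3:**
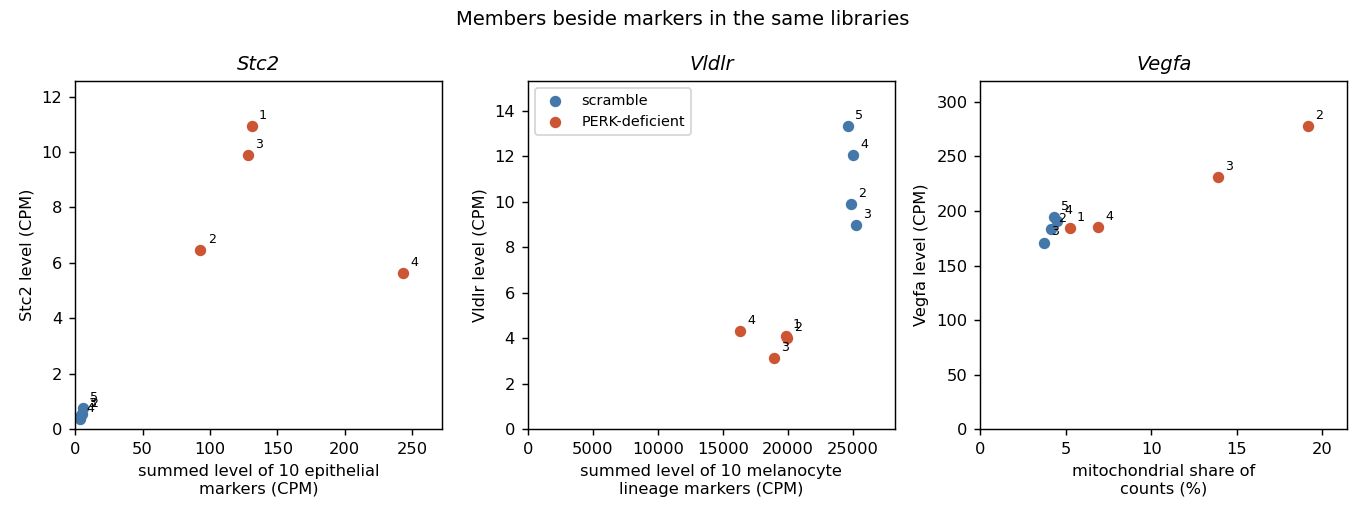
Levels in CPM from 0 are plotted for each library against the summed epithelial markers for Stc2, the summed melanocyte lineage markers for Vldlr and the mitochondrial share of counts for Vegfa. The PERK-deficient library with the highest epithelial sum, 243 CPM, has the lowest Stc2 level of its group, and the highest Vegfa level, 277 CPM, is in the library with a share of 19.2%.

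Stc2 and Vldlr were also computed with libraries left out. Without PERK-deficient libraries 2 and 4, the libraries with the highest mitochondrial share and leukocyte markers, Stc2 rose by 4.23 (edgeR adjusted p = 0.000306) and Vldlr fell by 1.62 (edgeR adjusted p = 0.00672) on the log2 scale. These 2 libraries had the lowest Stc2 levels of their group, 6.46 and 5.64 CPM, so a larger Stc2 difference was fixed in advance. Their Vldlr levels were 4.00 and 4.32 CPM, against 4.12 and 3.13 CPM in the kept libraries 1 and 3. A larger Vldlr fall was thus fixed in advance as well. Library 3, with a mitochondrial share of 13.9%, was kept, so the part of these shares was not tested. With 1 library left out at a time, Stc2 ranged from 3.74 to 4.08 and Vldlr from -1.60 to -1.41.

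**Figure D4:**
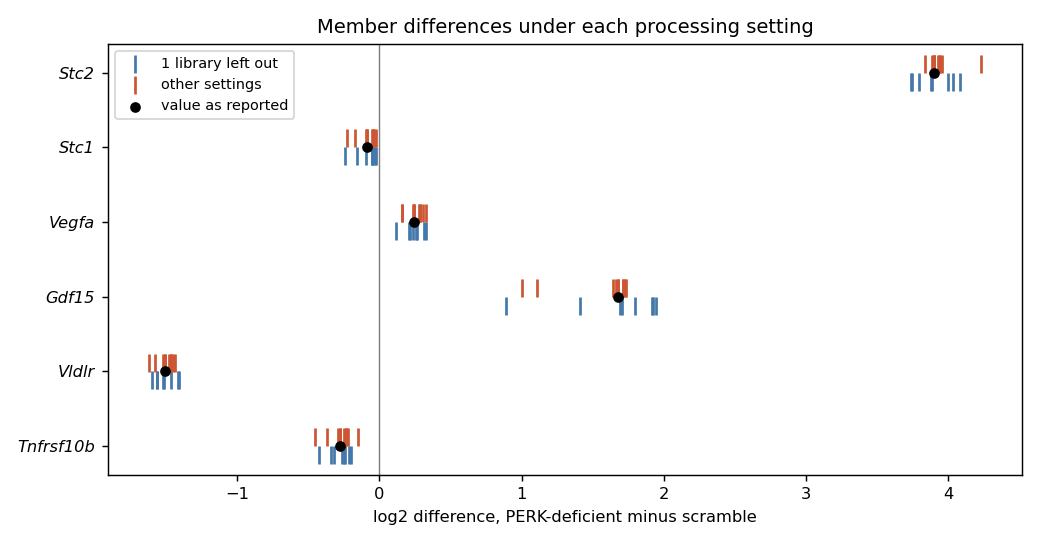
Log2 differences, PERK-deficient minus scramble, are plotted for the 6 tested members, with a black point for the value as reported and ticks for each setting, upper ticks for other settings and lower ticks for 1 library left out. Gdf15 has the widest range, from 0.89 to 1.95 with 1 library left out, and no member crosses 0.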

How the data were processed

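RNA of c-Kit-enriched tumour cells was sequenced in 8 libraries as 105-base pairs from 100 ng of RNA with a strand-specific kit, per the labels' protocols. Tools named in the submitters' processing notes are STAR 2.5.3a, HTSeq 0.6.1, bcl2fastq and DESeq2 1.30.1, with the build mm10. Whether counting used strand is not given in the sources used here. The deposited raw table holds whole-number read counts per gene that the authors did not normalize; their normalized table was not used.

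Counts of 16662 genes kept by filterByExpr were scaled by TMM factors (0.863 to 1.03) and tested with the edgeR 4.0.16 robust quasi-likelihood test in R 4.3.3, with Benjamini-Hochberg adjustment over all of them at 0.05. The biological coefficient of variation was 46.3%. Each label names a tumour of its own but not a mouse, so p-values measure the spread between these samples, which may be technical. Chi-square comparisons found no pair of libraries alike within sampling noise. The method was tested on simulated data. Log2 CPM for similarity used a prior count of 2 and genes with a mean of at least 1. Gene positions and exon lengths came from GENCODE M21.

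The members and the lists of partners, relatives, pathways and markers were chosen with earlier results of these data known. Named were all members, Eif2ak3, Kit and the 3 most similar genes per member. From a list, up to 6 called genes with the smallest p were named, or its 2 most abundant. Other list genes were named after their values were seen. A relative in the list and a gene similar to Vldlr are not reported here. Alternatives were DESeq2 1.42.0, other scalings and filters, a fit that is not robust, a replicate block and dropping each library in turn; leaving out 2 libraries together or mitochondrial genes was chosen after seeing the data. Plots used Python 3.11.15 and matplotlib 3.10.9.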

Additional observations from a re-analysis of the deposited data

Results flagged for a closer look

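Among 14 sets of 4 libraries, 1 for each member and group with any counts, the highest or lowest library was far from the other 3, relative to the whole range, in 3; chance does this in about 1 set in 20. The Stc1 level of 61.7 CPM in PERK-deficient library 2 lay above 40.5 to 43.8 CPM in the others of its group. The Tnfrsf10b level of 33.5 CPM in the same library lay above 22.0 to 23.9 CPM. This library had a TMM factor of 0.863, against 0.987 to 1.03 in the others of its group. A lower factor raises the CPM of every gene, and whether these gaps hold without the factors was not tested. Lamp3 had 0 CPM in scramble library 4 and 1 count in each other scramble library, a step of a single read. The Gdf15 level of 4.97 CPM in PERK-deficient library 4 came just short of the same limit. What sets these libraries apart was not tested.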

How the results depend on the processing

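For the 6 tested members, 18 settings each gave 108 log2 differences, of which 107 kept their direction and their side of the threshold and 0 reversed. The exception was Vldlr with a replicate block, at -1.43 (edgeR adjusted p = 0.0722). Apart from leaving out 1 library, 10 settings gave Vldlr adjusted p-values from 1.56e-08 with DESeq2 to that 0.0722 with edgeR. With that replicate block 1 member was called, Stc2 at 3.90 (edgeR adjusted p = 0.0325), and 208 of all genes, 0 partners, 1 relative, 1 gene of the PERK and ATF4 pathway, 0 hypoxia targets and 3 p53 targets. The shared numbers 2, 3 and 4 did not pair the libraries: deviations from the group means correlated at -0.01, 0.10 and -0.20, and 2 of 6 libraries correlated best with their own number. Leaving out 1 library at a time gave 1078 to 2616 called genes, 2 called members, 4 to 7 partners, 2 to 6 relatives, 3 to 9 pathway genes, 2 to 4 hypoxia targets and 6 to 8 p53 targets. The count was 2299 as reported and 3314 with DESeq2. Over the other scalings the median of all genes moved by less than 0.1. Depth limits Fgf21 and Lamp3, at or under 3 counts per group, and Stc2 in scramble tumours, with 17 to 39 counts per library.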
